A study of Homo sapiens with 4 samples.

Results

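RNase P and RNase MRP are ribonucleoprotein enzymes, and their protein subunits were followed here at the mRNA level in HEK-293 cells treated with siRNAs against the zinc finger genes ZSCAN5A and ZSCAN5B. The group was chosen by name, as 10 genes whose proteins bind the RNA components RMRP and RPPH1, out of 23284 gene symbols on 24934 rows of the expression table. The genes are POP1, POP4, POP5, POP7, RPP14, RPP21, RPP25, RPP30, RPP38 and RPP40, and all 10 were found in the table. The rule uses no expression value, but the group and the gene lists set beside it were chosen with earlier results of these data known. All 10 were above 1 FPKM (fragments per kilobase of transcript, after scaling to library depth) in every library, so none was lost to a filter on low values.

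RNase P cuts the leader from the front of precursor tRNAs, and RNase MRP cuts the precursor of ribosomal RNA between the sequences of the small and large subunit RNAs. Each enzyme is built on its own noncoding RNA made by RNA polymerase III, RPPH1 in RNase P and RMRP in RNase MRP, and most of the proteins are shared between them. In RNase P the RNA is the catalyst and the proteins hold it in shape and help to bind the substrate. ZSCAN5 proteins were studied for their binding at genes of RNA polymerase III, the class to which RMRP, RPPH1 and the tRNA genes belong, and the comparisons below ask how the mRNAs of the protein partners stood when ZSCAN5A or ZSCAN5B was targeted.

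HEK-293 is an established line derived from human embryonic kidney. The cells were transfected with 10 nM of si4 or si5 (both against ZSCAN5A), si1 (against ZSCAN5B) or a scrambled siRNA, and RNA was taken after 48 h. Every group, the control included, thus received an siRNA by transient transfection, and 1 mRNA library was sequenced for each, 4 in all. No siRNA was replicated, so the values have no replicate check, and the comparisons below are described without a test. A limma fit that takes si4 and si5 as a pair of samples is given among the alternatives. Levels are from bulk cultures, in which fewer cells of a kind and less RNA per cell cannot be told apart. The scrambled library was estimated at 5.4e+07 fragments, and the si4, si5 and si1 libraries were 1.09, 1.54 and 1.02 times as deep. Of 7 genes typical of HEK-293 cells, all were above 1 FPKM in at least 1 library, although PAX2 reached this in the control alone, and 6 genes of blood, liver, epithelial, connective tissue and endothelial cells were all below 0.1 FPKM in every library.

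The sites of the siRNAs show which transcript each library was meant to affect. All 3 matched the genome (GRCh37) once, on the minus strand of chromosome 19. The si4 site, chr19:56733332-56733352, and the si5 site, chr19:56733307-56733327, lie in the coding sequence of exon 6 of ZSCAN5A, and the si1 site, chr19:56701591-56701611, lies in the coding sequence of exon 5 of ZSCAN5B. Capitals mark the bases that pair with bases 2 to 8 of the guide strand, the seed.
si4: cgagaagaggtttACGTGTAa
si5: aagctagtcatccACAAGAGa
si1: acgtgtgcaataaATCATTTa
ZSCAN5A stood at 0.730 and 0.713 FPKM in the si4 and si5 libraries and at 2.53 and 2.42 FPKM in si1 and the control, so the si4 and si5 libraries carried 0.302 and 0.295 times the control level. ZSCAN5B was at 0.0331, 0.0663, 0.0948 and 0.0903 FPKM, a level that rests on 6, 17, 16 and 15 fragments. With the siRNAs against ZSCAN5A, the ratio of ZSCAN5B to the control was 0.366 (95% interval for counting error 0.116 to 0.999) for si4. For si5 it was 0.734 (0.345 to 1.58). Its ratio of si1 to the control was 1.05 with a 95% interval for counting error of 0.486 to 2.28, so it was not seen to be lower with si1, although these counts would not show a loss smaller than the lower bound. For this reason si1 is called the library labelled ZSCAN5B knockdown, and every direction given for it below is that of a library in which the targeted mRNA was not seen to be lower.

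None of the 10 subunit mRNAs differed from the control by more than 1.5-fold in any siRNA library. In the ZSCAN5A comparison, the mean of si4 and si5 against the control, 0 of 10 were past that limit, against 3.79% of 12993 genes with at least 1 FPKM in a library. With si1, 0 of 10 were past it, against 4.01% of 12921 genes. The same count was 0 of 10 for si4 alone, where the share of all genes was 6.36%, and 0 of 10 for si5 alone, where it was 3.54%. These counts are near the background shares and read as no result about the subunits.

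Within that limit the subunits mostly stood a little above the control. In the ZSCAN5A comparison 9 of 10 were higher than the control, against 46.7% of all genes, and the log2 ratios ran from −0.03 for RPP25 to 0.34 for RPP40 with a median of 0.11. The median over all genes was −0.02, with quartiles at −0.19 and 0.13. In the library labelled ZSCAN5B knockdown 9 of 10 were higher, against 48.5% of all genes, and the log2 ratios ran from −0.38 for RPP25 to 0.40 for RPP40 with a median of 0.14, beside −0.01 over all genes. After correction for transcript length and GC content, 6 of 10 were higher with si1, with a median of 0.05. In the ZSCAN5A comparison 7 of 10 were higher after it, with a median of 0.08. The medians over all genes were then −0.0007 with si1 and −0.0016 in the ZSCAN5A comparison, so slightly fewer genes were higher than lower. These corrected counts are close to that balance and read as no result about the subunits. The siRNAs against ZSCAN5A differed in this count. With si4, 9 of 10 were higher than the control (47.9% of all genes) and with si5 7 of 10 were higher (45% of all genes), and the medians were 0.18 and 0.09. All of these comparisons use the same control library, so they are not independent of each other. In the values as deposited, the control was the lowest of the 4 libraries for 6 of the 10 subunits, against 30.1% of 12983 genes. It was the highest for 0 of 10, against 36.2%. These counts were not repeated after the length and GC correction, so they read as no result about the subunits.

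**Figure D1:**
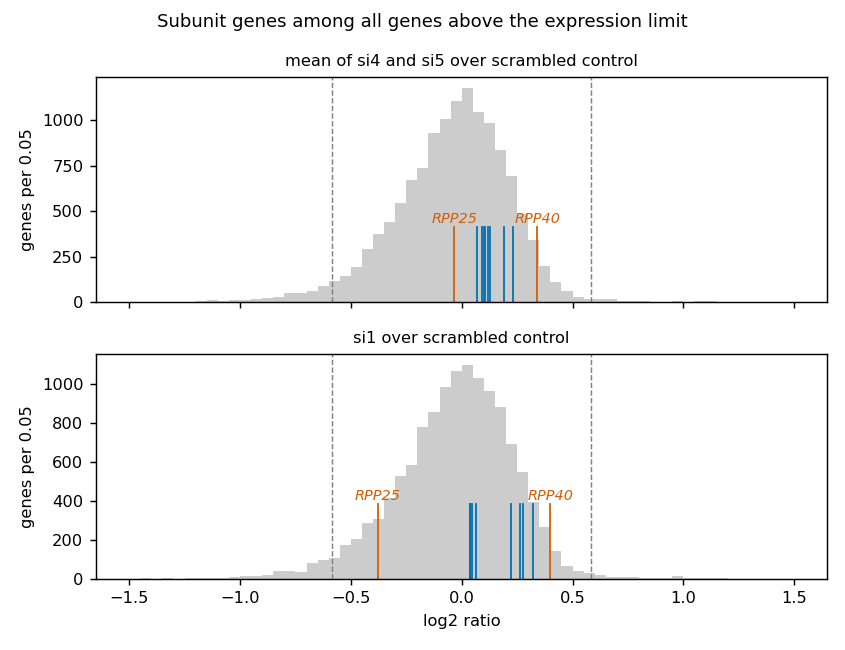
Histograms of the log2 ratio to the scrambled control over all genes above the expression limit (genes per 0.05 on the vertical axis), for the mean of si4 and si5 (top) and for si1 (bottom). Coloured lines are the 10 subunit genes, with RPP25 and RPP40 named, and dashed lines mark 1.5-fold. The subunits lie between −0.03 and 0.34 in the upper panel and between −0.38 and 0.40 in the lower one, all inside the dashed lines.

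The subunits differed from each other in level far more than any of them differed between libraries. Per length of transcript, POP7 was the highest in the control at 54.1 FPKM, followed by RPP21, POP5, POP4, RPP38, RPP30, RPP40, RPP14, POP1 and RPP25, which was the lowest at 3.06 FPKM. The si5 library had the same order. With si4 RPP30 and RPP38 changed places, and with si1 POP4 and POP5 did. Neighbours in this order whose ranges over the 4 libraries overlapped were POP7 and RPP21, POP5 and POP4, and RPP38 and RPP30, and the ranges of all other neighbours were apart. The highest member stood 20.8, 17.3, 23.6 and 17.7 times above the lowest in si4, si5, si1 and the control, whereas the highest and lowest libraries of the same gene were 1.09-fold (RPP14) to 1.32-fold (RPP40) apart. POP7 and RPP21 together made up 46.1%, 44.9%, 42.8% and 45.5% of the summed FPKM of the 10 genes, which was 257, 235, 243 and 223.

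**Figure D2:**
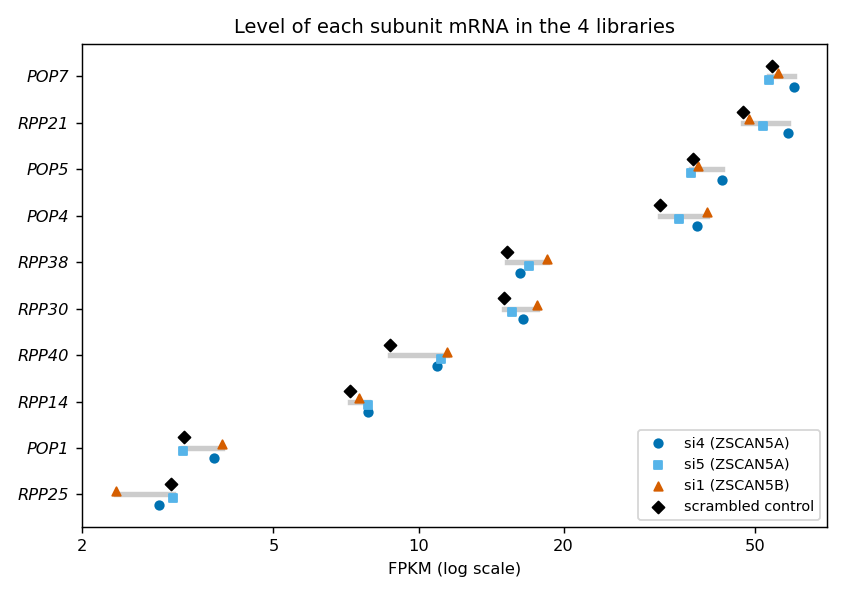
Level of each subunit mRNA in FPKM (log scale) in the si4, si5, si1 and scrambled control libraries, 1 point per library, with a grey bar from the lowest to the highest. Genes are ordered by their control level, from RPP25 at 3.06 to POP7 at 54.1 FPKM, and only 3 pairs of neighbours have bars that overlap.

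Because the ratios are small, the number of fragments behind each was estimated. For POP7, RPP25 and RPP40 whole numbers of fragments were recovered from the FPKM values, and for the other subunits they were approximated from the transcript length and the depth. In the control this approximation gave 2482, 389 and 511 for POP7, RPP25 and RPP40, against 2294, 381 and 485 recovered. It was farther off for RMRP (31.9 against 9), ZSCAN5A (236 against 485) and ZSCAN5B (8.80 against 15). Intervals of approximated subunits that end close to 1 depend on it. Recovered numbers are the smallest that fit, so a whole factor common to all libraries would be missed and would make the intervals too wide. Each ratio below has its 95% interval by the exact Clopper-Pearson method. It covers counting error only, not the difference between cultures, and uses values without the length and GC correction. At this depth many genes differ by more than counting error. Of 12415 genes with a transcript length, the interval lay above 1 for 33.1% and below 1 for 35.8% with si4, for 28.4% and 36.4% with si5, and for 31.5% and 33.2% with si1. Among the 10 subunits it lay above 1 for 7 and below 1 for 0 with si4, above 1 for 5 and below 1 for 0 with si5, and above 1 for 5 and below 1 for 1 with si1. An interval that leaves out 1 therefore shows that 2 libraries differed, not that the siRNA made the difference.

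**Figure D3:**
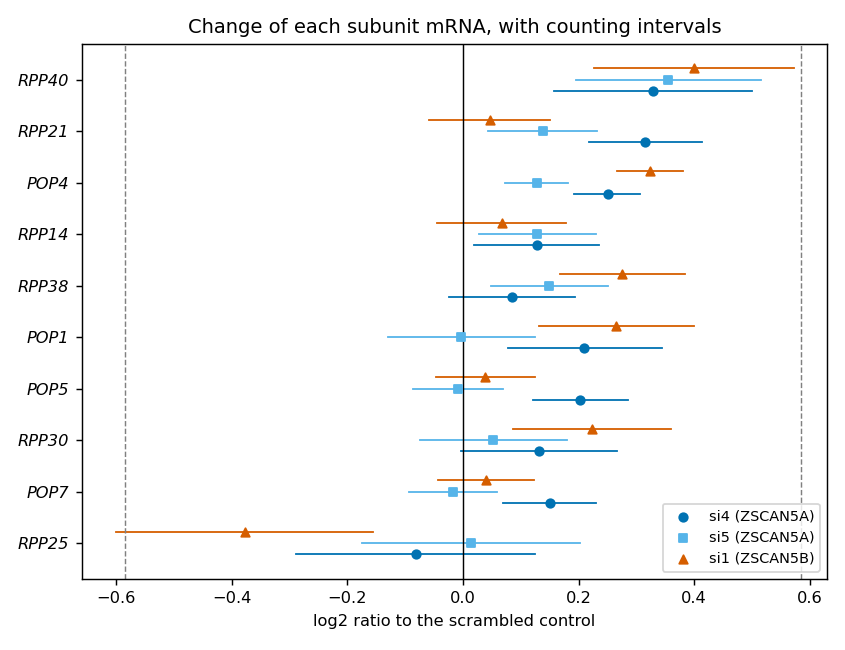
Log2 ratio of each subunit mRNA to the scrambled control for si4, si5 and si1, with bars for the exact 95% interval of counting error and dashed lines at 1.5-fold. RPP40 lies right of 0 with all 3 siRNAs (0.33, 0.35 and 0.40), and RPP25 lies left of 0 with si1 (−0.38).

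The proteins bind each other in modules, and the mRNAs are described in that order. POP1, the largest subunit and a scaffold for the RNA, lies at chr8:99129521-99172069 on the plus strand (hg19, as for all gene positions here unless another build is named). Its mRNA had 3.76, 3.24, 3.91 and 3.25 FPKM in si4, si5, si1 and the control. The si4 and si1 libraries were high and the si5 library stood with the control. The ratios to the control were 1.16 (1.06 to 1.27), 0.998 (0.914 to 1.09) and 1.20 (1.10 to 1.32), and the direction with si5 cannot be read at this depth. The si4 library stood 1.16 times (1.07 to 1.26) above si5. The row of the next gene, HRSP12, ends 102 bases before it and had 22.5, 21.6, 23.7 and 18.6 FPKM.

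POP7 (RPP20) and RPP25 form a pair of Alba-type proteins that bind the RNA together, yet their mRNAs were at opposite ends of the range. POP7, at chr7:100303676-100305123 on the plus strand, had 60.0, 53.5, 55.6 and 54.1 FPKM in si4, si5, si1 and the control (2779, 3501, 2396 and 2294 fragments). Only si4 stood away from the control, at 1.11 times its level (1.05 to 1.17), beside 0.988 (0.937 to 1.04) for si5 and 1.03 (0.970 to 1.09) for si1.

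RPP25, at chr15:75247443-75249775 on the minus strand, was the only subunit lower than the control in both comparisons as deposited. After the length and GC correction its log2 ratios were 0.00 in the ZSCAN5A comparison and −0.33 with si1, still the lowest with si1. It had 2.89, 3.09, 2.36 and 3.06 FPKM, from 393, 594, 298 and 381 fragments, and the si1 library was lower than each of the others. Its ratio to the control was 0.945 (0.819 to 1.09) with si4, 1.01 (0.886 to 1.15) with si5 and 0.770 (0.659 to 0.898) with si1. Without the control library, si1 was at 0.815 times si4 (0.698 to 0.949) and at 0.762 times si5 (0.661 to 0.878). Of all genes above the limit, 9.71% had a lower log2 ratio in the library labelled ZSCAN5B knockdown. The level of POP7 was 17.3 to 20.8 times that of RPP25 in si4, si5 and the control, and 23.6 times with si1.

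RPP25 has a paralog, RPP25L, listed under its older symbol C9orf23 at chr9:34610482-34612110, which is not among the 10 subunits. It was the more abundant of the pair at 27.3, 24.3, 26.4 and 22.4 FPKM, or 9.44, 7.85, 11.2 and 7.32 times RPP25. In the si1 library the paralogs stood on opposite sides of the control, with log2 ratios of 0.24 for C9orf23 and −0.38 for RPP25. The longest run of bases shared by their transcripts was 12, against reads of 101 bases.

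POP5, RPP14, RPP30 and RPP40 form another module. RPP40, at chr6:4995280-5004271 on the minus strand, stood farthest above the control in the values as deposited. After correction for transcript length and GC content, its log2 ratio went from 0.34 to 0.20 in the ZSCAN5A comparison and from 0.40 to 0.23 with si1, below POP4 (0.24 and 0.36) and POP1 (0.22 and 0.36). Its level was 8.71 FPKM in the control (485 fragments), against 10.9, 11.1 and 11.5 FPKM in si4, si5 and si1 (665, 958 and 650 fragments). The siRNA libraries lay close together and the control was apart from them. The ratios were 1.26 (1.12 to 1.41), 1.28 (1.15 to 1.43) and 1.32 (1.17 to 1.49), and the mean of si4 and si5 was 26.7% above the control. The siRNA libraries did not differ from each other beyond counting error, with 0.982 (0.888 to 1.09) for si4 over si5, 1.05 (0.941 to 1.17) for si1 over si4 and 1.03 (0.932 to 1.14) for si1 over si5. Because 1 control library stands behind all 3 ratios, a low control and a gain under each siRNA cannot be told apart. The log2 ratio of RPP40 was above that of 95.8% of genes in the ZSCAN5A comparison and 97.0% with si1.

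The other genes of this module were closer to the control. POP5, which has a counterpart in the RNase P of archaea, lies at chr12:121016848-121019201 on the minus strand and had 42.6, 36.8, 38.0 and 37.0 FPKM. It was high with si4 alone, at 1.15 times the control (1.09 to 1.22), against 0.994 (0.941 to 1.05) with si5 and 1.03 (0.968 to 1.09) with si1. RPP30, at chr10:92631709-92668312 on the plus strand, had 16.5, 15.6, 17.6 and 15.1 FPKM. Its interval left out 1 with si1 only, at 1.17 (1.06 to 1.28), beside 1.10 (0.997 to 1.20) with si4 and 1.04 (0.950 to 1.13) with si5. The log2 ratio of RPP30 with si1 was 0.22 as deposited and 0.06 after the length and GC correction. RPP14, whose mRNA also encodes the mitochondrial enzyme HTD2, lies at chr3:58291972-58305920 on the plus strand and had the flattest profile, 7.86, 7.86, 7.53 and 7.19 FPKM. Its ratios were 1.09 (1.01 to 1.18), 1.09 (1.02 to 1.17) and 1.05 (0.969 to 1.13).

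RPP21, POP4 (RPP29) and RPP38 form the remaining module. RPP21, a zinc-binding protein of RNase P, lies at chr6:30312906-30314635 on the plus strand and had 58.6, 51.8, 48.6 and 47.1 FPKM. The siRNAs against ZSCAN5A were the higher libraries, with ratios of 1.24 (1.16 to 1.33) for si4 and 1.10 (1.03 to 1.17) for si5, against 1.03 (0.960 to 1.11) for si1, and si1 was at 0.829 times si4 (0.776 to 0.887). Its log2 ratio in the ZSCAN5A comparison was 0.23 as deposited and 0.08 after the length and GC correction. With si1 the log2 ratio of RPP21 was 0.05 as deposited and −0.06 after that correction. The table holds 7 rows of this symbol, of which 6 on alternate haplotypes of chromosome 6 are listed at 0, and an overlapping readthrough row, TRIM39-RPP21, had 1.03, 0.865, 1.11 and 1.20 FPKM. The 6 rows at 0 held no signal, but reads of RPP21 could be split with the readthrough row. Adding that row moved the log2 ratio of RPP21 from 0.23 to 0.22 in the ZSCAN5A comparison.

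POP4, which binds RPP21 and the RNA, lies at chr19:30097170-30108162 on the plus strand and was higher than the control in every siRNA library. It had 37.8, 34.7, 39.7 and 31.8 FPKM, with ratios of 1.19 (1.14 to 1.24) for si4 and 1.09 (1.05 to 1.13) for si5. With si1 it was 25.1% above the control (interval of the ratio 1.20 to 1.30). RPP38, a protein of the L7Ae family that binds kink-turns in RNA, lies at chr10:15139182-15146256 on the plus strand and had 16.2, 16.9, 18.5 and 15.3 FPKM. Its ratios were 1.06 (0.983 to 1.14), 1.11 (1.03 to 1.19) and 1.21 (1.12 to 1.31), with the si1 library the highest. The row of C10orf111 overlaps RPP38 and held 0.261 to 0.467 FPKM. Within the module, RPP21 stood at 1.55, 1.49 and 1.48 times POP4 in si4, si5 and the control and at 1.22 times with si1.

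The siRNAs were also set against each other, which leaves out the shared control. In si4 over si5, which target the same gene, 6 subunits were higher and 4 lower, against 54.6% of all genes higher, with a median log2 ratio of 0.10 beside 0.02 over all genes (quartiles −0.10 and 0.13), and values from −0.10 for RPP25 to 0.21 for POP1. The counting interval lay above 1 for 5 of the 10 subunits, against 32.6% of all genes, and below 1 for 0, against 25.4%. In si1 over si4 the subunits split into 5 higher and 5 lower, against 50% of all genes higher, with a median of −0.00 beside −0.00 over all genes, from −0.30 for RPP25 to 0.19 for RPP38. In si1 over si5, 7 were higher and 3 lower, against 55.6% of all genes higher, with a median of 0.05 beside 0.02 over all genes, from −0.39 for RPP25 to 0.27 for POP1. Past 1.5-fold there were 0 of 10 in each, against 2.53% of all genes for si4 over si5, 2.58% for si1 over si4 and 1.63% for si1 over si5. The median of 0.10 between siRNAs to the same gene stands beside a median of 0.11 for the same siRNAs against the control.

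The limit of 1.5-fold was lowered to a log2 ratio of 0.32 in either direction to see which subunits lay nearest to it. In the ZSCAN5A comparison 1 of 10, RPP40, passed, against 18.5% of all genes. With si1, POP4 and RPP40 passed on the higher side and RPP25 on the lower side, 3 of 10 against 19.5% of all genes. After the length and GC correction RPP40 was below this limit in both comparisons. With si1, POP1 and POP4 were then past it on the higher side and RPP25 on the lower side. The share of all genes past this limit was not counted after the correction, so these calls read as no result about the subunits.

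The ratio of a gene to the control varied with the length of its transcript across the whole table. Genes under 1000 bases had a median log2 ratio of 0.17 in the ZSCAN5A comparison and 0.17 with si1, genes from 1000 to 2000 bases 0.07 and 0.09, genes from 2000 to 4000 bases −0.02 and −0.01, and longer genes −0.11 and −0.10. Of the subunits, POP7 and RPP21 fell in the shortest class, POP5, RPP30, RPP38 and RPP40 in the next, POP4, RPP14 and RPP25 in the third and POP1 in the longest. POP1 had 0.11 and 0.27, above the median of its class, while POP7 had 0.07 and 0.04, below that of its own. When the median of genes of like length and GC content was taken off, the correction named above, POP5 and POP7 turned from higher to lower than the control in both comparisons, RPP30 in the ZSCAN5A comparison and RPP21 with si1. The part of RNA quality or fragment length in this trend was not tested.

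**Figure D4:**
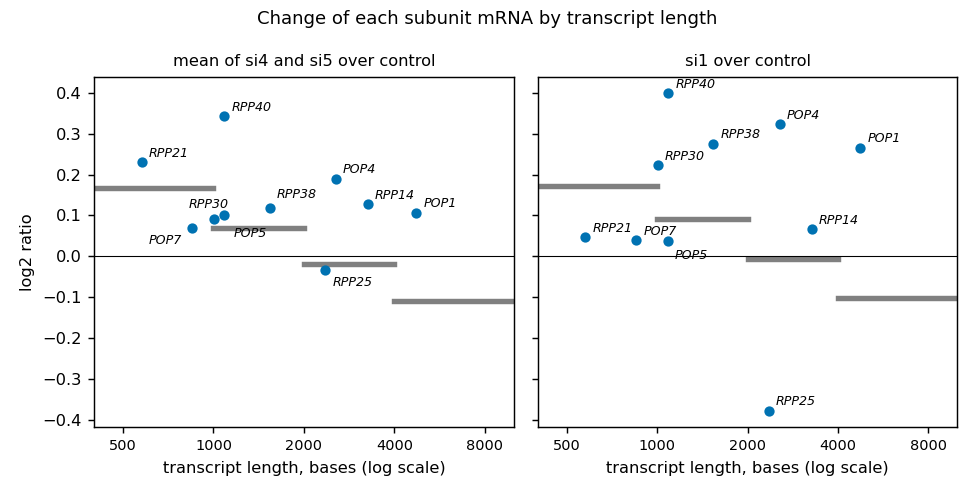
Log2 ratio to the control of each subunit mRNA (points) against the length of its transcript in bases (log scale), for the mean of si4 and si5 (left) and for si1 (right). Grey bars are the medians of all genes in 4 classes of length, from 0.17 in the shortest class to −0.11 and −0.10 in the longest, and RPP40, RPP30, RPP38, POP4, RPP14 and POP1 lie above the bar of their class in both panels.

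The RNA partners of these proteins are made by RNA polymerase III and lack a long poly(A) tail, and mRNA libraries hold few of their fragments. RMRP had 2.24 FPKM in the control (9 fragments), against 6.83, 5.15 and 6.36 FPKM in si4, si5 and si1 (30, 32 and 26 fragments), and its ratio to the control was 3.05 (1.41 to 7.31), 2.30 (1.07 to 5.48) and 2.84 (1.29 to 6.89). RPPH1 had 1.63, 1.48, 1.88 and 1.66 FPKM from 14, 18, 15 and 13 fragments. RPP40, the highest subunit before the length and GC correction, was at 1.26, 1.28 and 1.32 times the control. With si4 its interval (1.116 to 1.415) overlapped that of RMRP (1.413 to 7.31), which rests on the same control library. With si5 and si1 the ratio of RPP40 lay inside the interval of RMRP. RMRP is short and contains no intron, and it lies at chr9:35657751-35658014 (GRCh37) on the minus strand. The 264 bases are shown because it is the RNA on which most of these proteins assemble in RNase MRP.
RMRP: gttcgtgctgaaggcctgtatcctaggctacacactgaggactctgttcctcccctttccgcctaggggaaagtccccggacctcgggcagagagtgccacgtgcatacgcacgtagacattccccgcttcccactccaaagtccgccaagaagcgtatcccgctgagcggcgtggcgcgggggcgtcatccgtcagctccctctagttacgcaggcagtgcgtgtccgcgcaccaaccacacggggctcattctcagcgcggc

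Genes that act beside these enzymes were described by lists chosen for their roles. Their counts stand beside the 46.7% of all genes that were higher than the control in the ZSCAN5A comparison and the 48.5% with si1. The lists were not corrected for length and GC content, so the part of the trend with transcript length in their counts was not tested. The mitochondrial RNase P, which needs no RNA, has 3 proteins, and all 3 were higher than the control in both comparisons, with median log2 ratios of 0.28 and 0.37. HSD17B10, a dehydrogenase that serves as its subunit, had 0.42 in the ZSCAN5A comparison, and KIAA0391 (PRORP), the nuclease itself, had 0.13 and 0.17. Of 19 genes of tRNA end processing and splicing, 18 were higher and 1 lower in each comparison, with medians of 0.16 and 0.24. The former lies between 0.27 with si4 alone (17 higher) and 0.07 with si5 alone (16 higher). The highest were TRPT1, a tRNA phosphotransferase, at 0.42 with the ZSCAN5A siRNAs and C22orf28 (RTCB), the tRNA ligase, at 0.48 with si1, and CPSF1, a subunit of the complex that cleaves mRNA precursors, was lowest at −0.09 and −0.12.

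Of 20 nucleases and cofactors of pre-rRNA processing, 18 were higher and 2 lower in the ZSCAN5A comparison and 17 higher and 3 lower with si1, with medians of 0.15 and 0.15. NOL9, a polynucleotide kinase of pre-rRNA processing, was the only gene of the 5 lists past 1.5-fold in either comparison. Its 3.65, 2.92 and 4.04 FPKM in si4, si5 and si1 compare with 5.18 in the control, a log2 ratio of −0.66 in the ZSCAN5A comparison. Among 6 relatives of RPP38 and RPP25, 5 were higher and 1 lower in each comparison, with medians of 0.22 and 0.24, and NHP2, an L7Ae protein of box H/ACA particles, was the highest at 0.35 and 0.37. Of 4 genes of telomerase, another ribonucleoprotein, 3 were higher and TERT was lower, at −0.31 and −0.18. The medians of these 5 lists, 0.15 to 0.28 and 0.15 to 0.37, were at or above those of the RNase P and MRP subunits, 0.11 and 0.14. With si5 alone the medians were 0.24 for the mitochondrial RNase P, 0.10 for pre-rRNA processing, 0.14 for the relatives of RPP38 and RPP25 and 0.14 for telomerase. With si5 alone the list of tRNA end processing and splicing, at 0.07, was below the subunits, at 0.09. Thus the small difference from the control was not shown to be particular to the subunits.

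**Figure D5:**
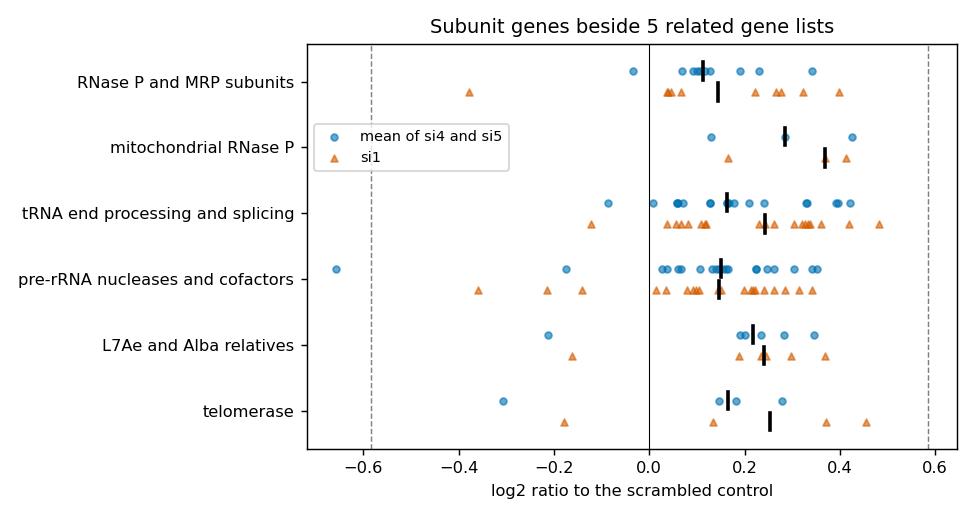
Log2 ratio to the scrambled control of each gene in the group of RNase P and MRP subunits and in 5 lists of related genes, for the mean of si4 and si5 (circles) and si1 (triangles). Black bars are medians, dashed lines mark 1.5-fold, and values are without the length and GC correction. The medians of the subunits are 0.11 and 0.14, those of the lists run from 0.15 to 0.37, and NOL9 at −0.66 is the only point past a dashed line.

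The genes whose profile over the 4 libraries was most like the median of the subunits (log2 ratios of 0.18, 0.09 and 0.14 for si4, si5 and si1) were sought among 5966 genes with at least 10 FPKM. By the distance between the 3 log2 ratios they were TRAPPC6A at 0.0104, MGC2752 at 0.0107, ANAPC5 at 0.0109, UBE2G2 at 0.0116 and C20orf4 at 0.0148. This likeness rests on 3 ratios that share a control.

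The seeds of the siRNAs were searched in the 3′ UTR of 1 annotated transcript of each subunit gene. The si4 site ACGTGTA occurred in 2.81% of 11975 genes and in 0 of 10 subunits, the si5 site ACAAGAG in 10.1% and in POP1 and RPP25, and the si1 site ATCATTT in 20.4% and in RPP14. Both RPP25 and RPP14 are printed to show the context of the match, with the site in capitals.
RPP25, si5: accttaaggcgACAAGAGaggggccccag
RPP14, si1: tgtatcagtacATCATTTtattttatggc
The match in RPP25 begins at base 152 of a 3′ UTR of 1569 bases, and RPP25 was at 1.01 times the control with si5. POP1, which holds the same site, was at 0.998 times the control with si5, 1.16 with si4 and 1.20 with si1. The match in RPP14 begins at base 2654 of 2700, and RPP14 was at 1.05 times the control with si1. RPP25 was lower with si1, and the letters of the si1 site were not found in the 3′ UTR used. An effect through the seeds was not tested. The annotated 3′ UTRs of RPP30, RPP40, RPP21 and RPP38 are short, at 3, 34, 50 and 91 bases, and leave little sequence to search.

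Promoters, here the bases from 250 before to 50 after a gene's start, were taken from RefSeq (GRCh38.p14), where 9 of the 10 subunits were matched. A GC box, GGGCGG on either strand, was found in 7 of the 9 and in 45% of 35116 promoters. These 35116 were not limited to genes expressed here, so they are a background unlike the subunits. The letters of a GC box were not found in the windows of POP4 and RPP38. CCAAT on either strand was found in 4 (POP5, RPP21, RPP30 and RPP38) and in 34.6% of all, an E box CACGTG in POP7 alone and in 7.26% of all, and TATAAA on either strand in 0 of the 9 and in 11.5% of all. The promoters of RPP40 and RPP25, the subunits with the highest and lowest ratio with si1 in the values as deposited, are printed with the GC boxes in capitals. They lie at chr6:5003988-5004287 and chr15:74956723-74957022 of GRCh38.p14, both on the minus strand, and hold 3 and 2 GC boxes, some of which overlap in RPP40.
RPP40: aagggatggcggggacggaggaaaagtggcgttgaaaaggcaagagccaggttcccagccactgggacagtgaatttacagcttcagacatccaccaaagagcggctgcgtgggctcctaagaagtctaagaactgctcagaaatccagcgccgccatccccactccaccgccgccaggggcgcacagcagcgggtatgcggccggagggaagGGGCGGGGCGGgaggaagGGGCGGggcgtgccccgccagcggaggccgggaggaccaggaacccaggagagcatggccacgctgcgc
RPP25: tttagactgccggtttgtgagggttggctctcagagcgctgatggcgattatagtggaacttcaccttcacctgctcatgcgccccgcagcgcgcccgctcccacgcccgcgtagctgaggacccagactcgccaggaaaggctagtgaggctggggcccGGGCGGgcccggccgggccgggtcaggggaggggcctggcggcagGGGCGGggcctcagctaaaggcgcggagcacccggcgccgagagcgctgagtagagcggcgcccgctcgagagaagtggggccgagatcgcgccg
Both promoters are rich in G and C, at 66% and 70.7%. POP4, which had the highest ratio with si1 after the length and GC correction, is among the subunits without the letters of a GC box.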

How the data were processed

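The deposited data are 1 table of FPKM values made by the authors from aligned reads, with the gene symbol, the hg19 locus and an FPKM column for each of 4 libraries. Per the submitters' processing notes, CASAVA 1.8.2, Trimmomatic 0.30, TopHat2 2.1.0, Cufflinks 2.2.1 and hg19 were used, and the annotation is not given in the sources used here. Labels and methods name different stranded mRNA kits. The table holds 0 other columns of per-sample values.

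FPKM values were used as deposited. The ZSCAN5A comparison set the average of si4 and si5 against the control, and the ZSCAN5B comparison set si1 against it. Calls past 1.5-fold needed a value of 1 FPKM or more in a library of the comparison, the rule the study used for ZSCAN5B, and here also no side at 0. The study's adjusted p-value for ZSCAN5A was not repeated as a main test, since 1 library stands for each siRNA. Members and gene lists were chosen with earlier results of these data known. All members were named, with RMRP, RPPH1, RPP25L and the targeted genes, and of each list the genes past 1.5-fold or at its extremes.

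Relative depth was read from the steps between 1745 low values. Values in whole-number proportions within 0.005 of a whole number, up to 6000, were taken as fragments, a tolerance set after looking at the data. The recovery was tested on simulated data. It found 100% of genes with 1 to 100 control fragments, 98.3% with 100 to 1000 and 58.3% with 1000 to 4000. Of those found, 100%, 100% and 99.4% had the right proportions between libraries. Numbers too small by a whole factor common to all libraries were counted as right. With noise added, 0.333%, 0.333% and 0% were found. Other fragments were approximated from GENCODE transcript lengths lifted to GRCh37. Intervals are exact Clopper-Pearson 95% intervals. Genes within 1 kb were taken as neighbours. Alternatives covered the expression limit, pseudocount, scaling, shared symbols, length and GC content, each siRNA alone, the fold limit and limma on log2(FPKM + 1). Python 3.11.15, NumPy 2.4.6, pandas 2.3.3, SciPy 1.17.1, matplotlib 3.10.9, R 4.3.3 and limma 3.58.1 were used. ChIP-seq and qRT-PCR were not analysed here.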

Additional observations from a re-analysis of the deposited data

How the results depend on the processing

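No subunit passed 1.5-fold, or 2-fold, under any expression limit, pseudocount, scaling, treatment of shared symbols, correction for length and GC content, or single siRNA that was tried, and at a log2 ratio of 0.32 1 passed in the ZSCAN5A comparison and 3 in the library labelled ZSCAN5B knockdown. The medians stayed above 0 throughout, from 0.08 with the length and GC correction to 0.18 with si4 alone in the ZSCAN5A comparison, and from 0.05 with that correction to 0.16 with upper-quartile scaling for si1. Of 108 values of single subunits in the ZSCAN5A comparison 8 changed sign and of 88 with si1 3 did. The sign changes under the length and GC correction were POP5 −0.04, POP7 −0.07, RPP30 −0.06 and RPP25 0.00 in the ZSCAN5A comparison and POP5 −0.13, POP7 −0.06 and RPP21 −0.06 with si1. With si5 alone they were POP1 −0.00, POP5 −0.01, POP7 −0.02 and RPP25 0.01. After the correction RPP40 was at 0.20 in the ZSCAN5A comparison and 0.23 with si1, below POP4 (0.24 and 0.36) and POP1 (0.22 and 0.36), RPP21 was at 0.08 in the former and RPP30 at 0.06 in the latter. The cause was not tested. Adding the readthrough row to RPP21, an alternative chosen after seeing the data, changed no sign. With at least 5 FPKM required, POP1 and RPP25 left and 8 subunits remained.

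The count of all genes past 1.5-fold moved from 492 in the ZSCAN5A comparison to 2512 without an expression limit, 205 at 5 FPKM, 199 with a pseudocount of 1, 302 with the length and GC correction and 822 with si4 alone, and from 518 with si1 to 2364, 252, 210 and 354 under the same settings other than the last. limma, with si4 and si5 as a pair of samples against 1 control, called 0 subunits at an adjusted p of at most 0.05 and 10 of 13044 genes. At an unadjusted p under 0.05 limma had 1618 genes, 1 of them a subunit. This was RPP40, with an adjusted p of 0.393 by limma. The spread limma used is that between the ZSCAN5A siRNAs. No paired analysis was possible because each group has 1 library.

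Depth limits RPP25 and RPP40 the most among the subunits, since RPP25 rests on 298 to 594 and RPP40 on 485 to 958 fragments, and it limits RMRP and RPPH1 far more. Leaving out the only control was not possible, and every ratio to it rests on that library.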
